A study of Drosophila melanogaster with 6 samples.

Results

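Dp domains that were wide and held at most 1 Rbf peak were mapped in flight muscles of Drosophila melanogaster by chromatin immunoprecipitation followed by sequencing (ChIP-seq). A domain was taken from the Dp peak list when it spanned at least 4000 bp and shared at least 1 bp with no more than 1 peak of the Rbf list, with the mitochondrial genome left out. Of the 5149 Dp peaks, 331 met this rule. They were thus selected on 2 measured values, the Dp width and the number of Rbf peaks, which are given as a description and without a test. All muscles came from pharate animals 96 h after pupa formation, and carried the insertion P{UAS-mCherry-RNAi}attP2, an RNAi construct against a fluorescent protein absent from flies, with a GAL4 driver under control of the muscle gene Mef2. The Rbf, Dp and input samples shared this genotype, which served as wild type. The 2 Dp samples were precipitated with a rabbit antibody and the 2 Rbf samples with a mixture of mouse antibodies, and the 2 input samples had no antibody. The labels give 25 °C for growth, and 5 °C in the stage label of the Dp samples. Each antibody has 1 peak list over both of its samples, so no spread between replicates and no depth per sample can be given, and no group of samples was tested against another.

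Dp is the partner protein that E2F transcription factors need to bind DNA. Rbf belongs to the retinoblastoma family, binds E2F and Dp complexes on chromatin, and is best known for repressing their targets. In the fly, E2F and Dp act with an activating member, E2f1, and a repressing member, E2f2, and E2F activity has also been described as needed for muscle growth. Binding of such a factor at a promoter usually gives a narrow peak, and the domains described here are several times wider than the typical Dp peak. Genes and sequences under the domains are not named, because no genome or annotation of build BDGP5, in which the coordinates are given, was used here.

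Wide domains with at most 1 Rbf peak were few in number but covered a large part of the Dp-bound length. They made up 6.43% of the 5148 Dp peaks off the mitochondrial genome and 26.2% of the length under them, 1983 kb of 7574 kb. Peaks of at least 4 kb were 9.48% of Dp peaks, or 488 in number, and 67.8% of those had at most 1 Rbf peak. Their median width was 5429 bp (quartiles 4968 and 6829), against 905 bp over all Dp peaks. That width, and a share of length above the share of number, follow from the 4000 bp limit. No Rbf peak overlapped 236 of these domains, and 95 of them (28.7%, exact 95% interval 23.9 to 33.9) held 1. Over all Dp peaks, 45.8% overlapped at least 1 Rbf peak and 39.5% exactly 1, and since the rule capped this number the shares are given side by side only. Intervals cover counting error over peaks, and neighbouring peaks are not independent.

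The label of little Rbf held for most of the domains but not for all of them. Among the 95 domains with 1 Rbf peak, that peak covered under 30% of the domain in 56 and at least 70% in 36, with 3 in between. The Rbf peak covered at least 50% of the domain in 37, called domain-wide Rbf from here on, and less in 58, called small Rbf. The split was chosen after these values were seen. In the domain-wide form the Rbf peak had a median width of 5304 bp and covered a median of 96.6% of its domain, so by length these were sites of both proteins. In the small form it had a median width of 639 bp and covered 11.0%. Rbf peaks covered 12.0% of the length of all 331 domains, beside 29.3% over all Dp peaks. The share was 68.7% in the 157 wide Dp peaks with 2 or more Rbf peaks, and 30.8% in all 488 wide Dp peaks. Because the rule capped the number of Rbf peaks, these shares are given side by side only.

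**Figure D1:**
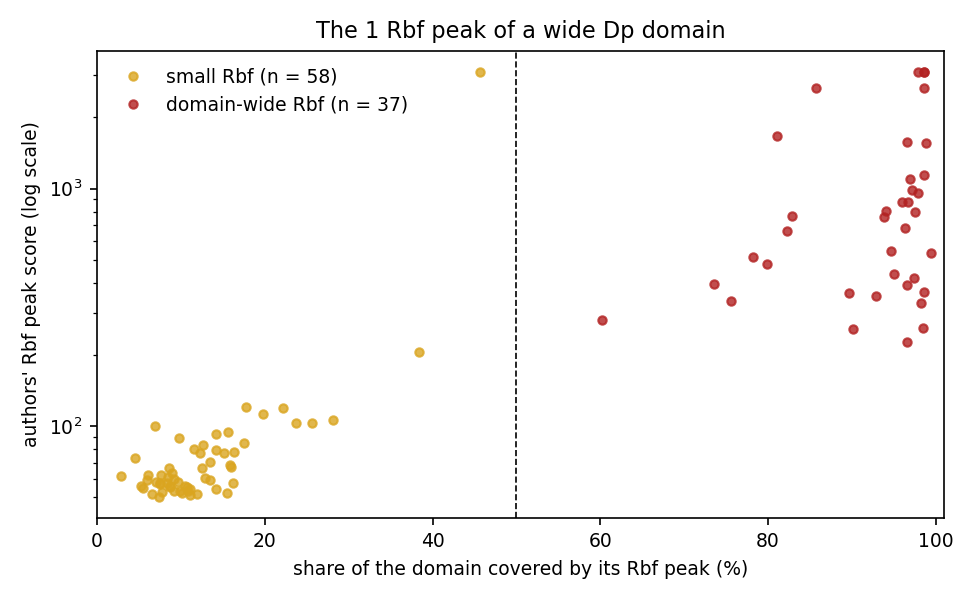
Share of each of the 95 domains covered by its 1 Rbf peak (x axis, percent) against the authors' score of that Rbf peak (y axis, log scale), with the dashed line at 50%. Most of the 58 small Rbf peaks lie at the lower left, under a score of 100, and 1 lies at 45.6% with a score of 3100. The 37 domain-wide ones lie at the upper right, with a lowest score of 225.54.

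The 2 forms also differed in the strength of the Rbf peak. Small Rbf peaks had a median authors' score of 61.4 (quartiles 55.6 and 79.8), close to the lowest score in the Rbf list, 50.01. Of them, 49 scored under 100. Domain-wide Rbf peaks had a median score of 681 (391 and 1095), and none scored under 100. Score ranges still overlapped, because 1 small Rbf peak reached 3100. That peak, on 2L at 22412731 to 22416170, covered 45.6% of a domain at 22412722 to 22420264, and it was the small Rbf peak nearest to the split. The single Rbf peaks of Dp peaks under 4 kb had a median score of 211 and covered a median of 53.1% of their Dp peak. Width and score of an Rbf peak come from the same calling, so their joint change was not tested.

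The place of the Rbf peak within its domain varied. Position was measured as the distance between the midpoints of the Rbf peak and the domain, in percent of the distance from the domain's midpoint to its edge. Small Rbf peaks lay at a median of 53.6% (quartiles 27.5 and 77.4), and 31 of 58 (53.4%, exact interval 39.9 to 66.7) lay beyond 50%, nearer the edge than the middle. In Dp peaks under 4 kb with exactly 1 Rbf peak the median was 14.1%, and 4.65% of 1936 lay beyond 50%. A short Rbf peak can lie farther off centre in a wide domain than in a narrow one, and this was not adjusted for. The Rbf peak lay wholly inside the domain in 89 of the 95.

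Domain widths were not spread evenly. In 100 bp bins the fullest was 4800 to 4899 bp with 33 domains, and the next was 5200 to 5299 bp with 29, where the median over filled bins was 3. Widths from 4700 to 5299 bp held 117 of the 331 domains (35.3%), and widths from 4000 to 4699 bp held 30. The bins at 5000 and 5400 bp held 16 domains each, and those at 6700 and 7700 bp held 10 each. The 33 domains of the fullest bin were spread over 5 arms and had a median Dp score of 1366. In the 157 wide Dp peaks with 2 or more Rbf peaks the fullest bin was also 4800 to 4899 bp, with 17. Their bin at 5200 to 5299 bp held 1. These bins were picked for their counts, so they are a description. Whether domains of like width lie over copies of 1 repeated sequence was not tested, for want of BDGP5 sequence.

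**Figure D2:**
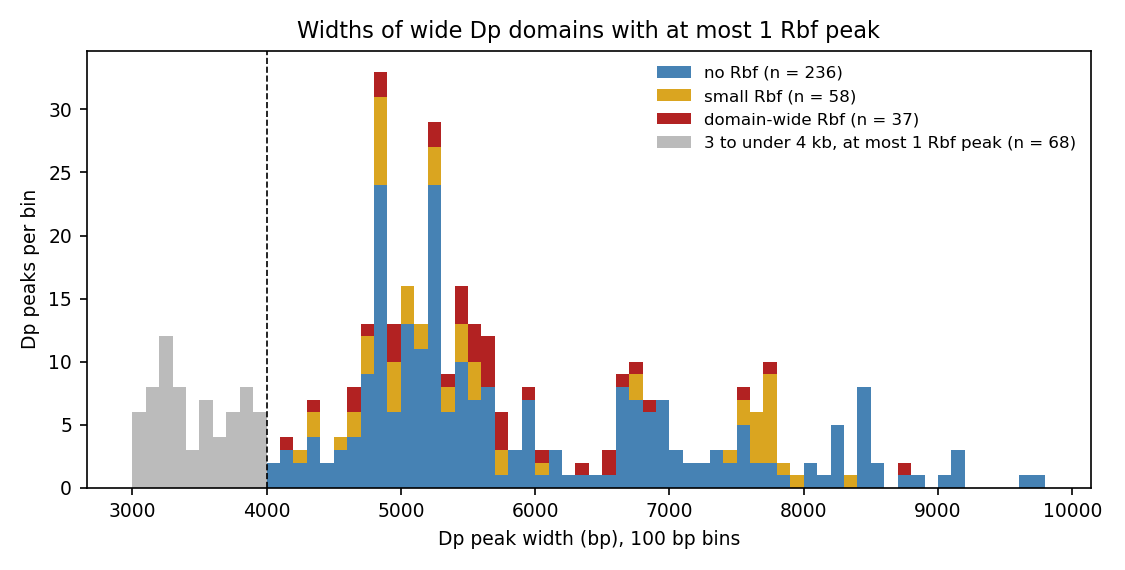
Number of Dp peaks (y axis) by width in 100 bp bins (x axis, bp), stacked by form, with narrower Dp peaks with at most 1 Rbf peak in grey left of the 4000 bp limit. The 4800 and 5200 bp bins stand above their neighbours with 33 and 29 domains, and the domains of 11945 bp and wider are off the axis.

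Dp scores and the place of the Rbf peak were also read within width ranges. Among the 37 with domain-wide Rbf, 13 were 5400 to 5799 bp wide and came from 5 arms. The Dp scores of these 13 ran from 1558 to 3191. The 26 domains without Rbf in this width range had a median of 900 and a maximum of 1173, below each of the 13. Over all widths the Dp scores of the 2 forms overlapped, at 340 to 3191 with domain-wide Rbf and 63.9 to 2655 without Rbf. Domains 7500 to 7999 bp wide numbered 27, and 15 of them had a small Rbf peak, more than the 10 with none. In 5 of those 15 the midpoint of the Rbf peak was 251 to 517 bp from the nearer edge of the domain. In 4 it was 1675 to 1956 bp from that edge, all on 2L, in 4 it was 2354 to 2551 bp, on 3 arms, and in 2 on 3L it was 3066 and 3603 bp. In the group of 4 on 2L, the Rbf peak at 1728.5 bp was 3440 bp wide and began near the domain's edge. The rest of that group were 568 to 1094 bp wide, so these midpoints do not mark like peaks. In domains of 4700 to 4899 bp the 10 small Rbf peaks lay 106 to 1984 bp from the nearer edge. Those at 1933, 1963.5, 1971.5 and 1984 bp, on 2L and 3L, lay close together, and the rest were at 106 to 1383 bp. Some distances were thus alike, and no one place was common to all domains of like width. How often random placement would give like distances was not computed, so recurrence of a place was not tested. All of these width ranges were chosen after the values were seen.

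Domains without Rbf mostly had Dp scores above the median of the list but short of its highest values. The authors' Dp score had a median of 905 (quartiles 660 and 1121) in the 236 domains without Rbf, 1089 (745 and 1541) in the 58 with small Rbf, and 2691 (1580 and 3100) in the 37 with domain-wide Rbf. Of the 236, 60 were among the 25% of Dp peaks with the highest scores, above 1113. Another 154 lay between that value and the median of the list, 354, and 22 lay below the median. Scores of 3100 or more, where high scores pile up, were reached by 85 of the 5148 Dp peaks (1.65%). They were reached by none of the 236, none of the 58 with small Rbf, 13 of the 37 with domain-wide Rbf and 13 of the 157 wide Dp peaks with 2 or more Rbf peaks. The 157 wide Dp peaks with 2 or more Rbf peaks had a median of 1695. The 2552 Dp peaks under 4 kb without Rbf had a median of 143, at a median width of 637 bp. Among Dp peaks without Rbf the median score rose gradually with width. It was 172 from 500 bp, 229 from 1000 bp, 375 from 2000 bp and 574 from 3000 bp. From 4000 bp it was 905, from 5000 bp 916, from 6000 bp 924 and from 8000 bp 601. The 4 kb limit was thus not a step in score. Among all Dp peaks without Rbf, 66 scored above 1113, and 60 of these (90.9%) were wide domains. Score and width come from the same calling, so the score was not tested against the other groups.

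**Figure D3:**
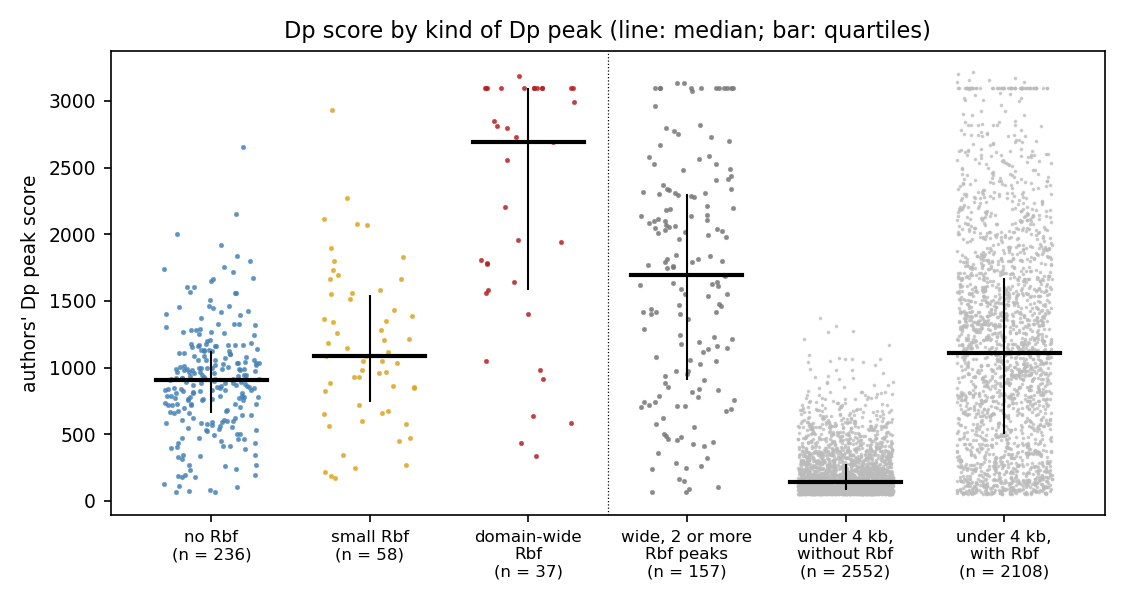
Authors' Dp peak score (y axis) of each Dp peak in the 3 forms of wide domain and in 3 other kinds of Dp peak, with the median as a line and the quartiles as a bar. Medians run from 905 without Rbf to 2691 with domain-wide Rbf. Dp peaks under 4 kb without Rbf, of median width 637 bp, have a median score of 143.

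The widest domains were found among those without Rbf. The widest of all spanned 16450 bp on 2L at 21449589 to 21466038 with a Dp score of 905.43. It was followed on the same arm by one of 13208 bp at 19652575 to 19665782 (269.12) and one of 11945 bp at 6432410 to 6444354 (178.17). The next were 9727 bp on 3L at 13802123 to 13811849 (1561.22), 9619 bp on 2R at 14250575 to 14260193 (264.07) and 9188 bp on 2R at 10354797 to 10363984 (829.38). Of these 6, 3 scored under the median of the whole Dp list, 354. On 3R the widest was 9127 bp at 22202074 to 22211200 (240.34), and on X it was 8424 bp at 3387883 to 3396306 with a score of 68.63. Chromosome 4 had its widest, 6706 bp, at 34132 to 40837 (1047.75), with an Rbf peak over 82.3% of it.

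The widest domain with 1 Rbf peak, at 8714 bp, was narrower than the widest without Rbf. Median widths were alike, at 5475 bp in the 95 with 1 Rbf peak and 5412.5 bp in the 236 without. The rule leaves out wide Dp peaks with 2 or more Rbf peaks, which reached 13067 bp. The domain of 8714 bp lay on 2L at 22657772 to 22666485, and its Rbf peak covered 99.5% of it. The other 5 of the widest 6 had small Rbf peaks, over 8.61% to 19.8% of the domain. These lay on 3L at 23365000 to 23373324 and 23378177 to 23385978, on 3R at 4731715 to 4739641 and 13858482 to 13866270, and on 2L at 17144285 to 17152072. Their Rbf scores ran from 51.57 to 112.09, while their Dp scores ran from 270.83 to 2272.33.

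Dp scores were highest where Rbf covered the domain. The highest, 3190.54, belonged to a 5603 bp domain on 3L at 22754427 to 22760029, with Rbf over 98.6% of it. The next 5, tied at 3100 and ordered by width, were on 2R at 6835462 to 6843177, on 2L at 22283329 to 22290192, on 2R at 2233830 to 2239759 and 750854 to 756600, and on 3L at 13567644 to 13573361. Rbf covered 81.1% to 98.5% of the first 3, whose Rbf scores were 257.36, 2660.39 and 1673.95. Dp scores tied at 3100 cannot be ranked against each other. Rbf scores of 3100 were found in the domain at 750854 on 2R, in one on 3L at 23105625 to 23111130, in the 2L domain at 22412722 and in a chromosome 4 domain at 612162 to 616849. The last was outside the naming rule and was chosen once its values were known.

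Dp peaks with at most 1 Rbf peak lay on both sides of the 4000 bp limit. Just inside it were domains of 4033 bp on 3L (18522455 to 18526487, score 533.57), 4042 bp on X (21565317 to 21569358, 473.77) and 4172 bp on 3R (6081113 to 6085284, 781.60), each without Rbf. Just outside it were Dp peaks of 3990 bp on 2R (2370283 to 2374272, 422.53) with 1 Rbf peak, and of 3962 bp on 3R (7205701 to 7209662, 594.57) and 3955 bp on 2L (6428257 to 6432211, 558.20) without Rbf.

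Wide domains without Rbf often had another Dp peak directly beside them. A second Dp peak lay within 200 bp, edge to edge, of 159 of the 331 domains (48.0%, exact interval 42.5 to 53.6), where the share over all Dp peaks was 18.7%. By form it was 138 of 236 without Rbf (58.5%, 51.9 to 64.8), 15 of 58 with small Rbf (25.9%, 15.3 to 39.0) and 6 of 37 with domain-wide Rbf (16.2%, 6.19 to 32.0). In wide Dp peaks with 2 or more Rbf peaks it was 21.7% (15.5 to 28.9), and in Dp peaks under 4 kb without Rbf 23.1% (21.5 to 24.8). The interval of the domains without Rbf thus lay above those of these 4 groups. At a limit of 100 bp the share was 44.5% without Rbf and 16.6% in each of the other kinds named last. Whether these differences exceed those between separate samples could not be tested with 1 list. Dp peaks of 3 to under 4 kb with at most 1 Rbf peak were read at the 200 bp limit, by 100 bp bin. From 3000 to 3499 bp, 2 of 6, 5 of 8, 7 of 12, 5 of 8 and 1 of 3 had such a neighbour. From 3500 to 3999 bp it was 3 of 7, 3 of 4, 2 of 6, 5 of 8 and 5 of 6. Close neighbours were thus frequent in many of these bins too, and not particular to domains of at least 4 kb. The limit of 200 bp was set with the gaps in view.

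**Figure D4:**
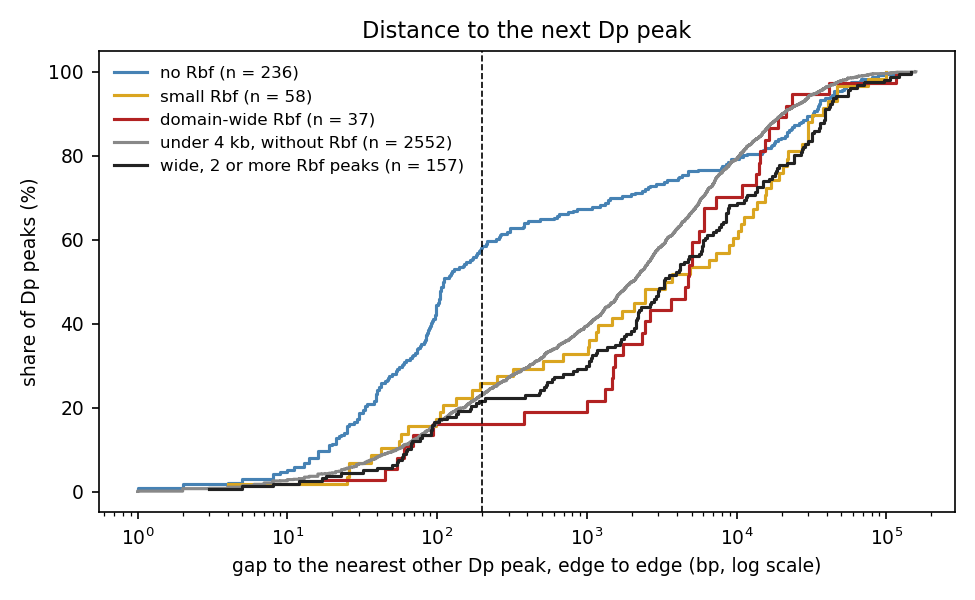
Cumulative share of Dp peaks (y axis, percent) by gap to the nearest other Dp peak (x axis, bp, log scale), for the 3 forms of wide domain and 2 other kinds, with the dashed line at 200 bp. The curve of domains without Rbf reaches 58.5% at that line, and the other 4 curves lie between 16.2% and 25.9%. Dp peaks of 3 to under 4 kb, where close neighbours were also frequent, have no curve of their own.

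Neighbours of domains without Rbf mostly scored lower than the domains, and in width they were close to Dp peaks in general. Around the domains without Rbf, 181 neighbours within 200 bp were separated by a median gap of 74 bp (quartiles 32 and 110). Their median width was 874 bp, beside 905 bp over all Dp peaks, and 163 of them were under 4 kb. A neighbour shorter than its domain thus follows largely from the 4000 bp limit. The neighbours' median Dp score was 132, beside 354 over all Dp peaks and 143 in Dp peaks under 4 kb without Rbf. Their scores were thus close to those of narrower Dp peaks without Rbf in general. The domain scored higher than its neighbour in 159 of the 181 cases. In 16 cases the neighbour was itself a domain, and where both lack Rbf the pair is counted from each side. An Rbf peak overlapped 11 of the 181 neighbours (6.08%), beside 45.8% over all Dp peaks. These shares are not a like comparison, because the neighbours lay within 200 bp of domains grouped by having no Rbf peak. Of those domains, 4.66% had any Rbf peak within 1 kb. Of the 236 domains, 43 had such a neighbour on both sides and 95 on 1 side. One example, named after its values were seen, was a 5623 bp domain on 3L at 6409984 to 6415606, which ended 39 bp before the next domain, at 6415646 to 6424489. Domains with domain-wide Rbf had 10 such neighbours, 8 of them beside domains of a single run on 2L described below, where domains count as each other's neighbours. The other 2 were 1014 and 1088 bp wide. With Dp peaks at most 200 bp apart joined, the 331 domains fell into 316 stretches with a median of 6639 bp. Of these, 144 held more than 1 Dp peak and 17 were at least 10 kb long.

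No Rbf peak was called for long distances around many of the domains without one. The nearest Rbf peak was a median of 21680 bp away from the 236 (quartiles 6396 and 44323), against 11056 bp from Dp peaks under 4 kb without Rbf. An Rbf peak lay within 10 kb of 77 of the 236 (32.6%, exact interval 26.7 to 39.0), against 47.5% (45.5 to 49.5) of those narrower peaks and 70.9% of all Dp peaks, a share that counts overlapping Rbf peaks as within 10 kb. Within 1 kb the shares were 4.66% (2.35 to 8.19) and 6.82% (5.87 to 7.87), so at that distance the intervals overlapped. The most isolated was a 9068 bp domain on 2L at 14642688 to 14651755, 280482 bp from any Rbf peak, with a Dp score of 1140.29. The next were on 2R at 15844947 to 15850161, 192982 bp away, and on 2L at 14803878 to 14809188, 176334 bp away.

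Domains were spread over the arms at like densities. Per Mb of listed span, meaning the length up to the last peak end on an arm, there were 3.30 on 3L (81 domains, exact Poisson interval 2.62 to 4.10), 2.87 on 2L (66, 2.22 to 3.65), 2.72 on X (61, 2.08 to 3.50), 2.56 on 2R (54, 1.92 to 3.34) and 2.33 on 3R (65, 1.80 to 2.97). Chromosome 4 had 4 domains, 2.96 per Mb (0.807 to 7.58). These intervals overlap between every pair of neighbours in that order. X held 18.4% of the domains (14.4 to 23.0), beside 18.2% of all Dp peaks. By form, X held 20.8% (15.8 to 26.5) of those without Rbf and 12.6% (6.70 to 21.0) of those with 1 Rbf peak. The fullest 1 Mb bins, from 21000001 to 22000000 on 2L and on X, held 9 domains each.

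The forms differed in how often they lay near centromeres. In the 2 Mb of listed span next to the centromere of X and the large autosome arms lay 58 of the 331 domains (17.5%, 13.6 to 22.1), beside 15.5% of all Dp peaks. Of the domains without Rbf 11.9% (8.03 to 16.7) lay there, of those with small Rbf 25.9% (15.3 to 39.0), and of those with domain-wide Rbf 40.5% (24.8 to 57.9). In wide Dp peaks with 2 or more Rbf peaks the share was 46.5% (38.5 to 54.6). The interval without Rbf did not overlap those of the last 2 groups, and the difference was not tested. Outside those stretches and chromosome 4, the share of domains with 1 Rbf peak was 23.0% in place of 28.7%, and Rbf covered 8.38% of the domain length in place of 12.0%.

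Most domains had no other domain within 10 kb. The nearest other domain was a median of 88889 bp away, and 53 of the 331 (16.0%, 12.2 to 20.4) had another within 10 kb. The share that evenly placed domains would have was not computed, so whether they lay closer together than their number implies was not tested. At most 5 kb apart, 45 domains formed 20 runs, 18 of them pairs. One run of 3 spanned 25722 bp on 3L at 6398768 to 6424489. The longest run held 6 domains over 43644 bp on 2L, at 21441923 to 21485566, inside a centromere-proximal stretch.

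That run combined both kinds of domain. Its first 2 domains, of 6814 and 16450 bp, had no Rbf peak and Dp scores of 574.16 and 905.43. The other 4 had domain-wide Rbf and Dp scores of 2691.18, 3100, 2812.15 and 2557.27. Rbf peaks covered 93.8%, 94.7%, 94.1% and 96.3% of these 4, with Rbf scores of 762.62, 544.79, 804.66 and 680.87. Their widths were 4960, 4949, 4929 and 4360 bp, and their starts followed each other at 5073, 5043 and 4983 bp, with gaps of 113, 94 and 54 bp. A Dp peak of 1144 bp, too narrow to count as a domain, followed the run and ended at 21486755. Rbf peaks continued past it, at 21486806 to 21489771, 21489780 to 21494801 and 21494815 to 21501216. Regular spacing of this kind was seen in this run, and it was not searched for elsewhere. Whether it follows repeated sequence was not tested.

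**Figure D5:**
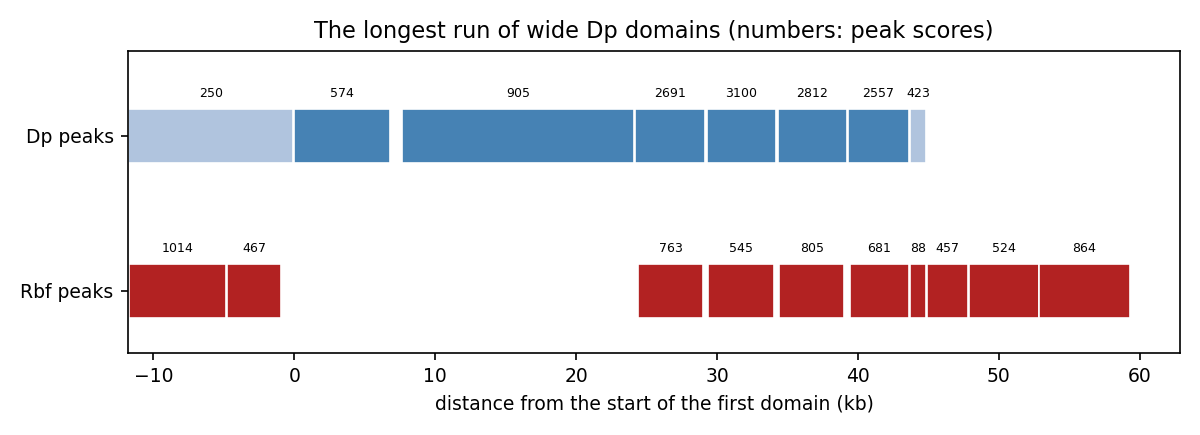
Dp peaks (top) and Rbf peaks (bottom) along the longest run of wide domains, with distance from the start of the first domain on the x axis (kb) and the authors' scores above the bars. Dark blue bars are the 6 domains and pale blue bars other Dp peaks, and the 4 domains on the right each match 1 Rbf peak.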

How the data were processed

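Per the labels, chromatin was fixed in 1.8% formaldehyde. Build BDGP5, MACS 1.4.2, Bowtie2 2 and bcl2fastq 1.8.3 are listed, per the submitters' processing notes, with no role given. The authors deposited 2 peak lists of 5 columns, and column 5 is the score that their peak calling gave each peak. It ranks peaks only within its list. Its unit, the control used and any pooling of reads are not given in the sources used here, and depth is unknown. Rbf and Dp samples were registered apart, so differences between experiments and between antibodies cannot be told apart.

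Overlaps, gaps and shares were computed with scipy 1.17.1, pandas 2.3.3 and numpy 2.4.6 under Python 3.11.15, tested on simulated lists, and the 331 domains were counted again with bedtools 2.31.1. Figures used matplotlib 3.10.9. Positions are 1-based. Shares have exact Clopper-Pearson intervals at 95%. No test was run, because peaks of 1 list are not replicates. Regions named are the 6 widest without and with Rbf, the 6 of highest Dp score, the widest on each arm, the 3 on each side of 4000 bp, the 3 of highest Rbf score, the 3 farthest from Rbf and the longest run. The domains and choices were made with earlier results of these data known.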

Additional observations from a re-analysis of the deposited data

How the results depend on the processing

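Of 45 alternative values for 9 results, 29 stayed within the interval of the reported value (or within 1.5 times a reported count) and 16 did not. The interval for the length covered by Rbf treats bases as independent and is too narrow, and 5 of the 16 belong to it. With domains taken from 3000 bp, the median Dp score was 905, 23.6% had another domain within 10 kb and Rbf covered 11.9% of the length; from 5000 bp the last 2 values were 11.2% and 11.6%. With Dp peaks at most 500 bp apart joined, the median score was 908, 10.3% had another domain within 10 kb and Rbf covered 8.64% of the length. With Rbf peaks at or above the median Rbf score only, which admits more domains by construction, 21.8% held 1 Rbf peak, the median Dp score was 1025, 24.5% lay near a centromere, Rbf covered 14.2% of the length, and 20.5% of domains without Rbf had an Rbf peak within 10 kb. Without the centromere-proximal stretches and chromosome 4, 23.0% held 1 Rbf peak and Rbf covered 8.38% of the length. With a limit of 100 bp, 36.6% had a neighbouring Dp peak in place of 48.0%. Beyond what each setting leaves out or admits, the cause was not tested. The limits of 100 bp and 500 bp for neighbours, and of 30% and 70% for Rbf cover, were added after the data were seen, and the last 2 gave 39 and 36 domains with domain-wide Rbf in place of 37. No paired analysis was possible because the replicates of an antibody share 1 list, which also means that none could be left out. Unknown depth limits how firmly the absence of an Rbf peak can be read.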
